A study of Mus musculus with 24 samples.

Results

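Uts2b, Vipr2, Amhr2, Pappa, Rspo2, Dio2 and Ahnak2 are 7 mouse genes of peptide, hormone and growth factor signalling and of cell structure. They were picked by name from the 38924 genes of the files as lower in the spinal cord of mice with a mutant Gars gene, and sorted by whether that difference needs the kinase Gcn2. The values that chose them are the levels in mutant and wild-type Gars mice described here, in all Gcn2 genotypes, and no numeric limit was set. The Gars differences below are therefore given as a description, without p-values. All 7 genes were among the 17409 that held enough counts to be tested.

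RNA of whole spinal cord was sequenced in 24 libraries from mice aged 8 weeks, on the mixed strain background given as B6J;CASTxB6.129. Of these libraries 13 were male and 11 female. Each is counted here as 1 mouse, which the labels do not say in words. Gars encodes glycyl-tRNA synthetase, and its dominant mutations underlie an inherited axonal neuropathy, Charcot-Marie-Tooth disease 2D. Gcn2 (gene symbol Eif2ak4) is the kinase that starts the integrated stress response when tRNA is uncharged or ribosomes stall. The groups were Gcn2+/+;Gars+/+ (4 mice), Gcn2+/+;GarsP278KY/+ (4), Gcn2+/-;Gars+/+ (4), Gcn2+/-;GarsP278KY/+ (4), Gcn2-/-;Gars+/+ (3) and Gcn2-/-;GarsP278KY/+ (5). P278KY is a germline allele carried on 1 copy of Gars, so every tissue has it, and the series' design text lists the Gcn2+/+ and Gcn2-/- groups but not the Gcn2+/- ones. Whole cord mixes neurons, glia and vessels, and fewer cells of a type cannot be told apart from less RNA per cell.

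Library totals lay between 19727467 and 32392753 counts. Eif2ak4, the targeted gene, separated the Gcn2 genotypes as labelled: it was at 28.9 to 34.4 CPM (counts per 1000000, on TMM-scaled library sizes) in the 8 Gcn2+/+ libraries, 20.4 to 23.6 in the 8 Gcn2+/- libraries and 11.4 to 15.0 in the 8 Gcn2-/- libraries. Markers of motor neurons, glia and vessels were all detected, and none of the markers on any cell type list that the files hold was at 0 throughout a group. Markers of Schwann cells and nerve roots stood apart in 5 libraries, namely Gcn2+/+ Gars mutants 2 and 4, Gcn2+/-;Gars+/+ replicates 1 and 3 and Gcn2+/- Gars mutant 4. Their 10 genes summed to 1050 and 2280 CPM in those Gcn2+/+ mutants, against 84.4 and 117 in the other mutants and 73.6 to 116 in Gcn2+/+;Gars+/+. The sums ran from 79.1 to 1920 in Gcn2+/-;Gars+/+, from 72.2 to 291 in Gcn2+/- mutants and from 76.2 to 128 in both Gcn2-/- groups. Meninges and fibroblast markers were high in the same 2 Gcn2+/+ mutants, at 287 and 1010 CPM against 52.5 to 68.8 in Gcn2+/+;Gars+/+. In the Gcn2+/- comparison it was the controls that held the higher levels, with 248 and 567 CPM in Gcn2+/-;Gars+/+ replicates 1 and 3, 125 and 135 in Gcn2+/- mutants 3 and 4 and 41.8 to 64.7 in the other Gcn2+/- libraries.

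The 7 genes act at different points of signalling between cells. Uts2b encodes urotensin-2B, a short cyclic peptide that acts on the same receptor as urotensin 2, and urotensin peptides are known from cholinergic motor neurons of the brainstem and spinal cord. Vipr2 is a G protein-coupled receptor of vasoactive intestinal peptide (VIP) and of PACAP, and Amhr2 is the type II receptor of anti-Müllerian hormone, a hormone of the TGF-beta family. Pappa is a secreted protease that cleaves insulin-like growth factor (IGF) binding proteins and so frees IGF. Rspo2 is a secreted enhancer of WNT signalling that binds LGR receptors and holds back the ubiquitin ligases ZNRF3 and RNF43. Dio2 is a selenoenzyme that turns the prohormone thyroxine into active thyroid hormone, in the brain mostly in astrocytes and tanycytes. Ahnak2 encodes a very large scaffold protein.

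Stretches of coding sequence show what makes the peptide and the enzyme distinctive. The first is the end of the Uts2b reading frame in GENCODE M21, the last 33 coding bases before the stop, with the last 2 cysteine codons and the codons between them in capitals: these cysteines close the ring of the mature peptide. It is read on the minus strand of GRCm38 and crosses an exon junction inside chr16:27353715-27360948. The second comes from Dio2, codons on either side of an in-frame TGA at codon 130 of 266 (chr12:90729793-90729855, minus strand). GENCODE annotates it as a selenocysteine codon, as it does another in-frame TGA at codon 263, which is not shown. The TGA at codon 130, read as an amino acid in place of a stop, is in capitals.
Uts2b: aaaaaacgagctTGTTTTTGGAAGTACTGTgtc
Dio2: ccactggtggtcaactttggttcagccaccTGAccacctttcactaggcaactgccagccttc

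In wild-type mice (Gcn2+/+;Gars+/+) the levels per transcript length spanned a wide range. On the scale of the deposited TPM (transcripts per 1000000, corrected for length), Ahnak2 was highest at 69.3 ± 11.4 (SD, n = 4). Dio2 (7.89 ± 2.74) and Uts2b (7.71 ± 2.21) came next with overlapping libraries. Rspo2 followed at 4.06 ± 0.471, Vipr2 at 3.10 ± 1.10, Amhr2 at 2.51 ± 0.307 and Pappa at 2.00 ± 0.135. Libraries of neighbours in this order overlapped except between Ahnak2 and Dio2 and between Uts2b and Rspo2. Counts behind these levels differed as much: over the 4 wild-type libraries Ahnak2 had 20341 counts, Dio2 2844, Pappa 1408, Rspo2 812, Vipr2 488, Uts2b 294 and Amhr2 135.

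In mice with intact Gcn2 (Gcn2+/+), all 7 genes were lower with mutant Gars, and the mutants held 26.8% to 59.2% of the wild-type mean. Uts2b was the lowest of them in these terms and Pappa the least reduced. Called here means an adjusted p below 0.05 in edgeR's quasi-likelihood test over all genes. By that rule 6 of the 7 were called and lower, Vipr2 being the exception, where 0.419% of all tested genes were called and lower. The genes were chosen on this contrast, so nothing is read from that count. The median log2 fold change of the 7 was -0.96, where the median of all genes was 0.01.

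**Figure D1:**
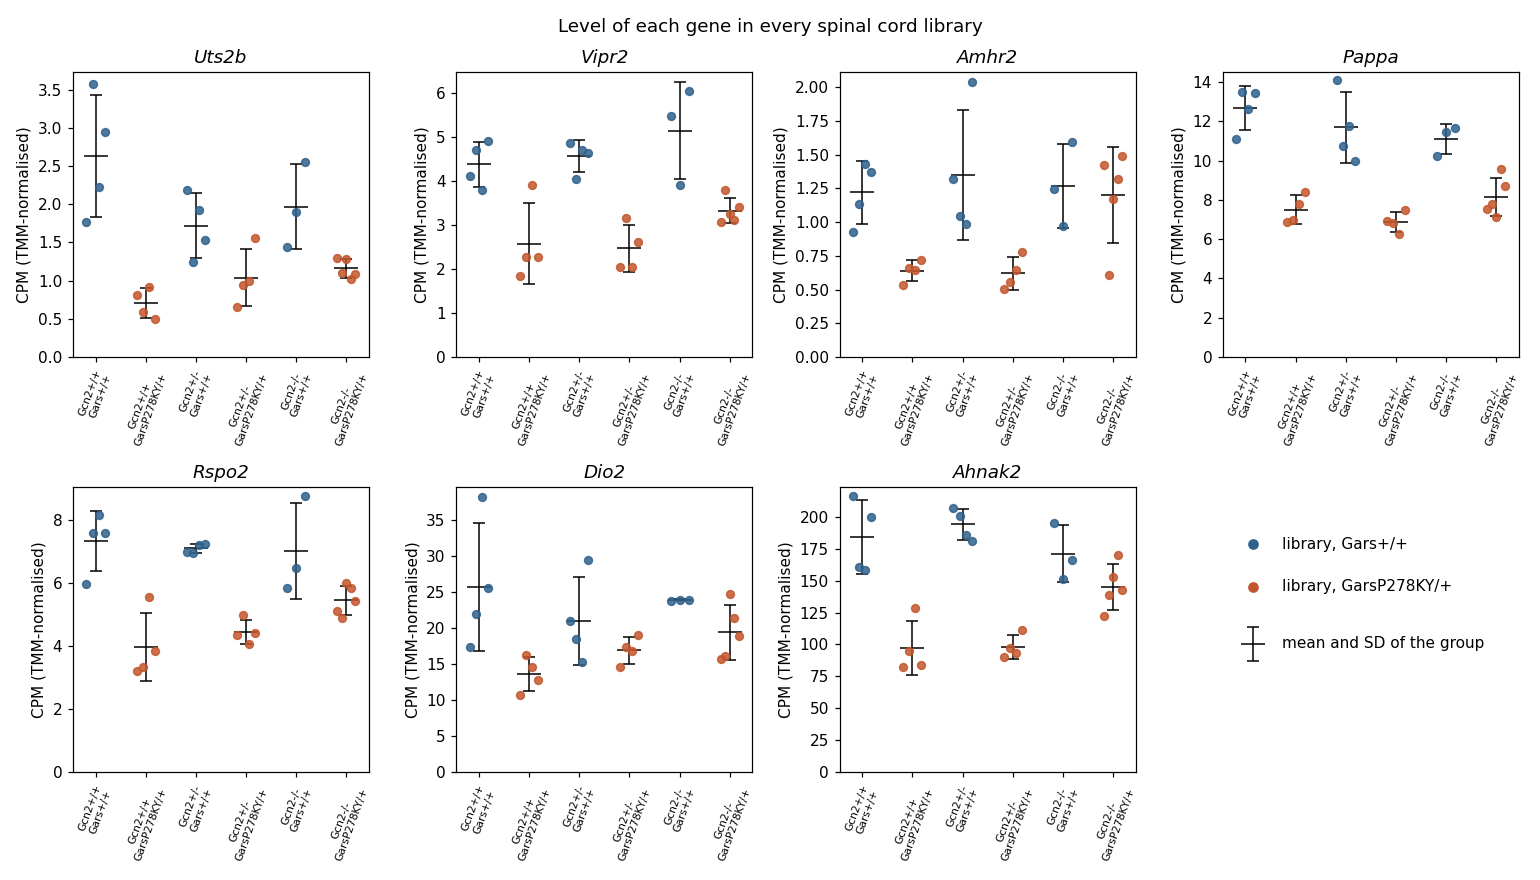
CPM of each gene (vertical axis, from 0) in every library, by Gcn2 and Gars genotype; points are libraries, the bar is the group mean and the whiskers its SD (3 to 5 libraries). In Gcn2+/+ mice the mutant points lie below all wild-type points for every gene except Vipr2, and in Gcn2-/- mice this holds for Uts2b, Vipr2 and Pappa.

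Uts2b, the peptide gene, was at 1.77, 3.58, 2.23 and 2.94 CPM in the 4 wild-type libraries and at 0.817, 0.593, 0.913 and 0.493 in the 4 Gcn2+/+ Gars mutants. The highest mutant was well below the lowest wild-type library. In Gcn2+/- mice it was at 2.19, 1.24, 1.93 and 1.53 CPM with wild-type Gars and at 0.658, 0.948, 0.994 and 1.55 with mutant Gars, with 1 mutant inside the wild-type range. Gcn2-/- mice had 1.45, 1.90 and 2.55 CPM with wild-type Gars and 1.30, 1.10, 1.28, 1.02 and 1.09 in the 5 mutants, all below the lowest control. The log2 fold change with mutant Gars was -1.95 ± 0.29 (SE) in Gcn2+/+, -0.77 ± 0.28 in Gcn2+/- and -0.72 ± 0.28 in Gcn2-/- mice. The Gcn2-/- mutants lay above the Gcn2+/+ mutants without overlap (1.02 to 1.30 against 0.493 to 0.913 CPM), and the Gcn2-/- controls averaged 74.8% of the wild-type mean with libraries that overlapped.

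Uts2b's relative Uts2, the urotensin 2 gene, was also lower with mutant Gars in each Gcn2 genotype. Its reduction was smallest in Gcn2+/+ mice, where that of Uts2b was largest. Uts2 went from 5.56 ± 0.775 to 4.59 ± 0.663 CPM in Gcn2+/+ mice, a log2 fold change of -0.29 ± 0.24. It was at -0.70 ± 0.24 in Gcn2+/- and -0.80 ± 0.24 in Gcn2-/- mice. The Gcn2-/- minus Gcn2+/+ difference was -0.52 ± 0.35. None of these was called by edgeR or DESeq2, with unadjusted p below 0.05 in the Gcn2+/- and Gcn2-/- comparisons. The shared receptor gene, Uts2r, had 53 counts over all 24 libraries and was too low to test.

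Vipr2, the VIP and PACAP receptor gene, was at 4.12, 4.71, 3.81 and 4.91 CPM in wild-type libraries and at 1.85, 2.27, 3.92 and 2.28 in Gcn2+/+ mutants. Mutant 3 alone reached the wild-type range, and the other 3 mutants were below it. In Gcn2+/- mice the values were 4.88, 4.05, 4.72 and 4.64 CPM with wild-type Gars and 2.05, 3.16, 2.04 and 2.62 with mutant Gars. Gcn2-/- mice gave 5.48, 3.92 and 6.06 CPM and, with mutant Gars, 3.07, 3.79, 3.26, 3.12 and 3.42. Mutants and controls did not overlap in either of these genotypes. The log2 fold changes were close together, at -0.80 ± 0.21, -0.90 ± 0.20 and -0.61 ± 0.20 in Gcn2+/+, Gcn2+/- and Gcn2-/- mice. Without Gcn2+/+ mutant 3 the first was -1.05, and Vipr2 was then called. It was also called in Gcn2+/+ mice without wild-type replicate 1 (-0.82) and by DESeq2.

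The transcripts that RSEM assigned to Vipr2 varied between libraries, which bears on its TPM but not on its CPM. Its mean effective length, over 6 annotated transcripts, ran from 1374 to 3131 bases, so that TPM was 3.10 ± 1.10 in wild-type and 2.45 ± 0.759 in Gcn2+/+ mutant libraries, closer together than the CPM. Of the 8 other tested genes of the VIP and PACAP pathway edgeR called 0 in Gcn2+/+ mice (1 at an unadjusted p below 0.05), 0 in Gcn2+/- mice (3) and 0 in Gcn2-/- mice (0), and DESeq2 called 1, in Gcn2+/- mice. Vip itself had 2.64 ± 0.225 and 2.76 ± 1.09 CPM in Gcn2+/+ wild-type and mutant mice, and Adcyap1, which encodes PACAP, 24.7 ± 2.7 and 24.2 ± 2.72. The PACAP receptor gene Adcyap1r1 was at 0.17 ± 0.07 on the log2 scale and Ramp1, a receptor-modifying protein gene, at 0.19 ± 0.13.

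Amhr2, the anti-Müllerian hormone receptor gene, had lower observed values with mutant Gars in mice with at least 1 copy of Gcn2. It was at 0.923, 1.13, 1.43 and 1.37 CPM in wild-type libraries and at 0.533, 0.658, 0.643 and 0.721 in Gcn2+/+ mutants. Gcn2+/- mice gave 1.32, 1.05, 0.986 and 2.04 CPM with wild-type and 0.503, 0.553, 0.646 and 0.776 with mutant Gars. In both genotypes all mutants were below all controls. Gcn2-/- controls were at 1.25, 0.971 and 1.59 CPM and Gcn2-/- mutants at 1.43, 0.607, 1.17, 1.32 and 1.49, so that 1 mutant was below the controls and the other 4 were among them. The log2 fold changes were -1.13 ± 0.25, -1.19 ± 0.25 and 0.01 ± 0.24 in Gcn2+/+, Gcn2+/- and Gcn2-/- mice. The last has a 95% interval of -0.50 to 0.52, and its sign changed with the fit.

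Amhr2 is also the least abundant of the genes in counts, with 135 counts in the wild-type and 73 in the Gcn2+/+ mutant libraries. As for Vipr2, the effective length of Amhr2 varied, from 438 to 1673 bases over 3 annotated transcripts, which bears on its TPM. Within wild-type libraries the length ran from 637 to 977 bases. In Gcn2+/+ mice the call of Amhr2 did not hold in every fit. Its call ended in 7 of the 8 fits that left out 1 Gcn2+/+ library, all but the one without wild-type replicate 1, with values from -1.21 to -1.01 over the 8. The gene of its ligand, Amh, was at 0.762 ± 0.178 CPM in wild-type mice and 0.887 ± 0.187 in Gcn2+/+ mutants. Of the 14 other tested genes of anti-Müllerian hormone and BMP signalling edgeR and DESeq2 called 0 in Gcn2+/+, Gcn2+/- and Gcn2-/- mice, with 1, 2 and 0 at an unadjusted p below 0.05, and their median in Gcn2+/+ mice was 0.00. The type I receptor gene Acvr1 was at -0.14 ± 0.05 and Smad4, the shared signal mediator, at -0.14 ± 0.08.

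Pappa, the IGF-releasing protease gene, was at 11.1, 13.5, 12.6 and 13.5 CPM in wild-type libraries and at 6.85, 6.98, 7.81 and 8.39 in Gcn2+/+ mutants. Gcn2+/- mice had 14.1, 10.8, 11.7 and 9.98 CPM with wild-type Gars and 6.93, 6.84, 6.26 and 7.50 with mutant Gars. Gcn2-/- mice had 10.2, 11.5 and 11.7 CPM, against 7.53, 7.81, 7.12, 9.56 and 8.73 with mutant Gars. All mutants were thus below all controls in every Gcn2 genotype, a pattern that Uts2b missed by 1 Gcn2+/- library and Vipr2 by 1 Gcn2+/+ library. The log2 fold changes were -0.80 ± 0.11, -0.79 ± 0.11 and -0.42 ± 0.11 in Gcn2+/+, Gcn2+/- and Gcn2-/- mice, and the SE of Pappa was the smallest of the 7 genes in each.

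Around Pappa, 15 other tested genes of pappalysins and IGF signalling had 0 members called by edgeR in Gcn2+/+, Gcn2+/- and Gcn2-/- mice, with 3, 3 and 1 at an unadjusted p below 0.05. DESeq2 called 1 of them, in Gcn2+/+ mice. Pappa2, its close relative, was at 2.66 ± 0.388 CPM in wild-type mice and 2.70 ± 0.285 in Gcn2+/+ mutants. Igfbp4, the binding protein best known as a substrate of Pappa, was at 15.8 ± 4.68 and 23.0 ± 9.23 CPM. Igfbp6 and Igf2 had the smallest p of the list, at 4.18 ± 1.35 and 2.25 ± 0.88 on the log2 scale, with mutant SDs (8.46 CPM for Igfbp6 and 142 CPM for Igf2) above the mutant means of 6.80 and 101 CPM. The Schwann and meninges markers given above were high in 2 of these 4 mutants, and their part in these values was not tested.

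Rspo2, the WNT enhancer gene, was at 5.96, 7.58, 8.15 and 7.59 CPM in wild-type libraries and at 3.20, 3.32, 5.55 and 3.83 in Gcn2+/+ mutants. Mutant 3 was again the highest, and still below all controls. Gcn2+/- mice had 6.98, 6.95, 7.20 and 7.23 CPM with wild-type Gars and 4.34, 4.98, 4.07 and 4.40 with mutant Gars, also without overlap. Gcn2-/- mice had 5.83, 6.46 and 8.73 CPM with wild-type Gars and 5.11, 4.89, 5.98, 5.83 and 5.42 with mutant Gars, where the groups overlapped. The log2 fold changes were -0.94 ± 0.16, -0.70 ± 0.15 and -0.33 ± 0.16 in Gcn2+/+, Gcn2+/- and Gcn2-/- mice.

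The other R-spondin genes did not share the pattern of values. In Gcn2+/+ mice Rspo1 was at 0.46 ± 0.21 on the log2 scale (2.37 ± 0.304 CPM in wild-type and 3.18 ± 0.406 in mutant mice), Rspo3 at -0.15 ± 0.15 and Rspo4, with group means of 0.155 and 0.308 CPM, at 1.39 ± 0.55. The receptor genes Lgr4, Lgr5 and Lgr6 were at -0.08 ± 0.07, -0.25 ± 0.14 and -0.39 ± 0.20, and Axin2, a WNT target, at 0.20 ± 0.14. Of the 15 genes of this list besides Rspo2, edgeR and DESeq2 called 0 in Gcn2+/+, Gcn2+/- and Gcn2-/- mice, with 2, 4 and 0 at an unadjusted p below 0.05.

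Dio2, the gene that activates thyroid hormone, varied most among wild-type libraries, at 17.4, 21.9, 38.2 and 25.5 CPM, and was at 10.7, 16.3, 14.5 and 12.8 in Gcn2+/+ mutants. The highest mutant was just below the lowest control. In Gcn2+/- mice it was at 21.02, 18.4, 15.2 and 29.4 CPM with wild-type Gars and at 14.6, 17.3, 16.7 and 19.0 with mutant Gars, with 1 of 4 mutants below the controls. In Gcn2-/- mice the controls were at 23.8, 23.9 and 23.9 CPM and the mutants at 15.7, 16.1, 24.7, 21.4 and 18.9, with 4 of 5 below the controls. The log2 fold changes were -1.05 ± 0.21, -0.35 ± 0.20 and -0.24 ± 0.21 in Gcn2+/+, Gcn2+/- and Gcn2-/- mice. Dio2 was thus nearer to 0 with 1 copy of Gcn2 than with both, as Uts2b was. Without wild-type replicate 3, the library at 38.2 CPM, the Gcn2+/+ value was -0.79 and not called. It was also not called without Gcn2+/+ Gars mutant 1 (-0.97) or 4 (-1.01).

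Of the 13 other tested thyroid hormone genes edgeR called 0 in Gcn2+/+, Gcn2+/- and Gcn2-/- mice, with 2, 3 and 0 at an unadjusted p below 0.05. DESeq2 gave 1, 1 and 0 calls. In Gcn2+/+ mice the receptor genes Thra and Thrb were at 0.22 ± 0.06 and -0.22 ± 0.10 on the log2 scale, and Klf9 and Hr, both known targets of thyroid hormone, at 0.11 ± 0.12 and -0.32 ± 0.18. Dio1 and Dio3, the other deiodinase genes, had 7 and 9 counts over all 24 libraries and were not tested. An antisense gene, Gm26512, overlaps Dio2 and had a mean of 0.889 CPM. The kits were stranded, but no source used here says whether the counting used strand.

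The promoter of Dio2 is shown because it alone, of the 5 genes with an entry in the RefSeq promoter table (Uts2b, Vipr2, Amhr2, Dio2 and Ahnak2), held a motif that was searched. The letters searched, on both strands of the 300 bases from 250 before to 50 after the RefSeq start, were TGACGTCA (the cAMP response element), its part TGACG, and TTGCATCA (an element bound by ATF4 with a C/EBP partner). Dio2 held TGACGTCA once, starting 95 bases before the start, and TGACG only within it. Over all 32851 windows of the table, 1.79% held TGACGTCA, 20.8% held TGACG and 0.895% held TTGCATCA. The 250 bases before the start follow (GRCm38.p6, chr12:90739039-90739288, minus strand), with the element in capitals. GENCODE M21 places the gene's start further downstream, at position 90738438. Letters alone show no binding.
Dio2: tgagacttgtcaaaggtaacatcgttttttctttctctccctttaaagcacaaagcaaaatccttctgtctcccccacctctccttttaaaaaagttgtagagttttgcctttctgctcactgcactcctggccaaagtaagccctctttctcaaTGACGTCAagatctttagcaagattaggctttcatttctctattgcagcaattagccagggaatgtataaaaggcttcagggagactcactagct

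Ahnak2, the scaffold gene, was at 216, 161, 158 and 200.2 CPM in wild-type libraries and at 82.2, 94.8, 128 and 84.1 in Gcn2+/+ mutants. Gcn2+/- mice had 207, 201, 186 and 181 CPM with wild-type Gars and 90.4, 97.1, 93.5 and 112 with mutant Gars. Mutants were far below controls in both genotypes. In Gcn2-/- mice the controls were at 195, 151 and 166 CPM and the mutants at 122, 139, 152, 170.3 and 142, and the groups overlapped. The log2 fold changes were -0.96 ± 0.14, -1.0 ± 0.13 and -0.22 ± 0.14 in Gcn2+/+, Gcn2+/- and Gcn2-/- mice. Ahnak2 thus had nearly the same value with 1 copy of Gcn2 as with both, on 11200 counts in the Gcn2+/+ and 9696 in the Gcn2+/- mutants.

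The related scaffold gene Ahnak differed from Ahnak2 in direction in Gcn2+/+ mice only. It was at 1.01 ± 0.45 on the log2 scale there, not called, with a mutant SD of 110 CPM around 162. In Gcn2+/- mice Ahnak was at -0.90 ± 0.43, below 0 as Ahnak2 was. Myof, a membrane repair gene, was at 1.18 ± 0.40 and Prx, the periaxin gene of myelinating Schwann cells, at 5.68 ± 2.36 in Gcn2+/+ mice. Prx is itself one of the Schwann markers, which were high in the libraries named above. Of the 8 genes of this list besides Ahnak2, edgeR called 0 in Gcn2+/+, Gcn2+/- and Gcn2-/- mice, with 4, 4 and 0 at an unadjusted p below 0.05. DESeq2 gave 1, 3 and 0 calls. All 8 lay below 0 in Gcn2+/- mice with a median of -0.67.

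**Figure D2:**
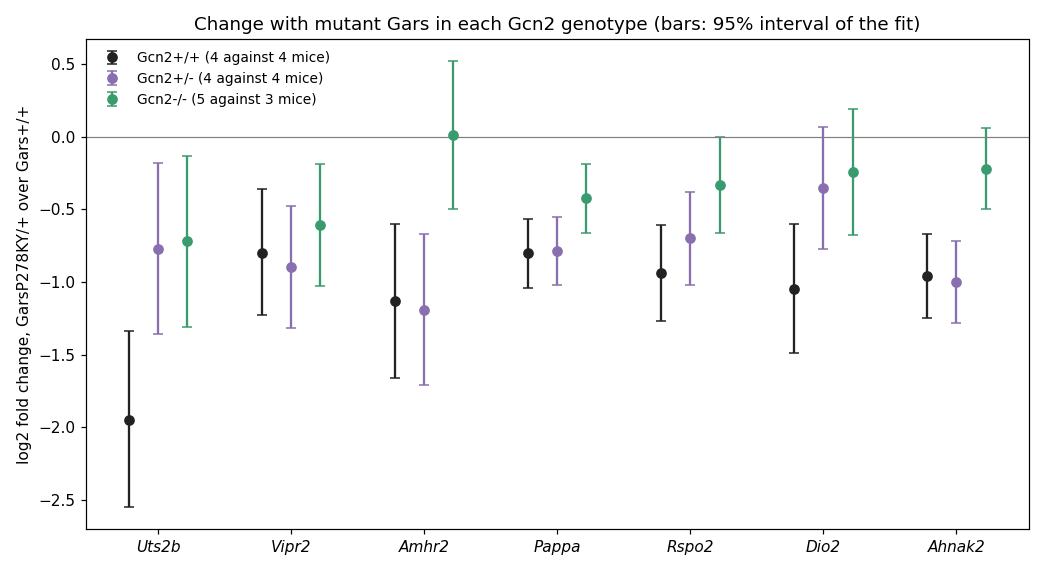
Log2 fold change of each gene between GarsP278KY/+ and Gars+/+ mice (vertical axis) in each Gcn2 genotype; points are edgeR estimates and bars their 95% intervals. In Gcn2-/- mice the intervals of Amhr2, Dio2 and Ahnak2 include 0, that of Rspo2 ends at 0, and those of Uts2b, Vipr2 and Pappa lie below 0.

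Without Gcn2 (Gcn2-/-), Uts2b, Vipr2 and Pappa kept all 5 mutants below all 3 controls, and Amhr2, Dio2, Rspo2 and Ahnak2 did not. By this measure of no overlap the count was 3 of 7, where 1.71% of all tested genes behaved so. It was 6 of 7 against 4.16% in Gcn2+/+ mice and 5 of 7 against 3.41% in Gcn2+/- mice. The rule sorted the genes on these values, so they are no test. EdgeR called 0 of the 7 as lower in Gcn2-/- mice, against 0.0115% of all tested genes, and DESeq2 called 0. In edgeR's test 4 were at an unadjusted p below 0.05 in Gcn2-/- mice, as were 757 of all 17409 tested genes. Nothing is read from the 4, for the same reason. The median log2 fold change of the 7 was -0.33 there, where all genes had a median of 0.00. With the number that begins each library title as a block, the Gcn2-/- values moved to -0.29 for Uts2b, -0.35 for Vipr2 and -0.41 for Pappa, and to -0.01 for Rspo2, -0.17 for Dio2, -0.23 for Ahnak2 and 0.10 for Amhr2. The same block took Uts2b to -1.23 in Gcn2+/- mice. Across the 6 groups of each gene in order of mean CPM, libraries of neighbouring groups overlapped except at 3 places. These were Vipr2 between Gcn2+/+;Gars+/+ (4.39) and Gcn2-/- mutants (3.33), Pappa between Gcn2-/- controls (11.1) and Gcn2-/- mutants (8.15), and Ahnak2 between Gcn2-/- mutants (145) and Gcn2+/- mutants (98.2). Group means of the Gcn2-/- mutants ranged from 44.1% of the wild-type mean for Uts2b to 99.0% for Amhr2.

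With 1 copy of Gcn2 (Gcn2+/-), 2 of the 7 were called and lower by edgeR, Pappa and Ahnak2, against 0.126% of all tested genes. In edgeR's test 6 were at an unadjusted p below 0.05, a level that more of all tested genes reached here than in Gcn2-/- mice. Nothing is read from the 2 or the 6, since the values behind them chose the genes. The median of the 7 was -0.79. Vipr2, Pappa, Amhr2 and Ahnak2 lay within 0.10 of their Gcn2+/+ values on the log2 scale, Rspo2 was 0.24 nearer to 0, Dio2 0.70 and Uts2b 1.18.

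The difference of the Gars effect between Gcn2-/- and Gcn2+/+ mice was above 0 for all 7, meaning a smaller reduction without Gcn2. It was 1.22 ± 0.42 for Uts2b, 1.14 ± 0.36 for Amhr2, 0.80 ± 0.30 for Dio2, 0.74 ± 0.20 for Ahnak2, 0.61 ± 0.23 for Rspo2, 0.38 ± 0.16 for Pappa and 0.19 ± 0.30 for Vipr2. EdgeR called 0 of these differences, where 0.0115% of all tested genes were called, and DESeq2 called 0. In edgeR's test 6 were at an unadjusted p below 0.05, as were 858 of all 17409 tested genes. Nothing is read from the 6, since the values behind them chose the genes. The sorting into genes that need Gcn2 and genes that do not is therefore one of observed values, and no single gene's difference passed over all genes. The interval for Vipr2 was -0.44 to 0.81, which holds 0 as well as a value as large as the whole Gcn2+/+ reduction. Both Gars effects draw on separate libraries, but each difference contains the Gcn2+/+ values that chose the genes.

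Loss of Gcn2 with wild-type Gars was not part of the rule, though it uses the same Gcn2+/+;Gars+/+ libraries. None of the 7 genes was called for Gcn2-/- against Gcn2+/+, where 0.0287% of all tested genes were called, and 0 were at an unadjusted p below 0.05 in edgeR's test. DESeq2 also called 0 of the 7. The estimates ran from -0.47 ± 0.30 for Uts2b (edgeR adjusted p = 1) to 0.21 ± 0.21 for Vipr2 (adjusted p = 1). For Gcn2+/- against Gcn2+/+ edgeR called 0 of the 7 and 0.0% of all tested genes, with 3001 genes at an unadjusted p below 0.05 and 459 called by DESeq2, which gave no adjusted p for Uts2b and Amhr2. Uts2b had the smallest p of the 7, at -0.60 ± 0.27 (adjusted p = 0.255), with 4 of 4 libraries below the wild-type mean and 2 below the lowest wild-type library. Dio2 followed at -0.31 ± 0.20 (adjusted p = 0.427), lower in 3 of 4 libraries.

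Sex is independent of the rule. None of the 7 genes was called between female and male mice by edgeR or DESeq2, where edgeR called 0.0804% of all tested genes. Amhr2 had the smallest p, with females 0.40 ± 0.15 above males on the log2 scale (unadjusted p = 0.0148, adjusted p = 1 in edgeR), and its female mean was the higher in 6 of 6 groups. Females made up 3 of 4 Gcn2+/+ mutants but 1 of 4 Gcn2+/+ controls. Without the sex term in the fit the Amhr2 value was -0.92 and not called. Within males and within females all 7 genes were below 0 in Gcn2+/+ and in Gcn2+/- mice. Log2 ratios of mean CPM ran from -2.14 to -0.80 in Gcn2+/+ females (3 mutants, 1 control) and from -1.63 to -0.86 in males (1 mutant, 3 controls). In Gcn2-/- mice 7 of 7 were below 0 in males (-0.70 to -0.13) and 6 of 7 in females (-1.08 to 0.13). The genes were chosen as lower in these same libraries, so these directions are no test.

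The library titles begin with numbers whose meaning is not stated, and they fall into an earlier and a later set. Within each set all 7 genes were below 0 in Gcn2+/+ and Gcn2+/- mice. The log2 ratios ran from -1.60 to -0.40 in the earlier Gcn2+/+ libraries (1 control) and from -2.35 to -0.57 in the later ones. All 3 Gcn2-/- controls carry earlier numbers. Within that set 6 of the 7 genes were below 0 in Gcn2-/- mice, with ratios from -0.73 to 0.07 (2 mutants), and no later value could be formed. The directions within sets are no test either, since the same libraries chose the genes.

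**Figure D3:**
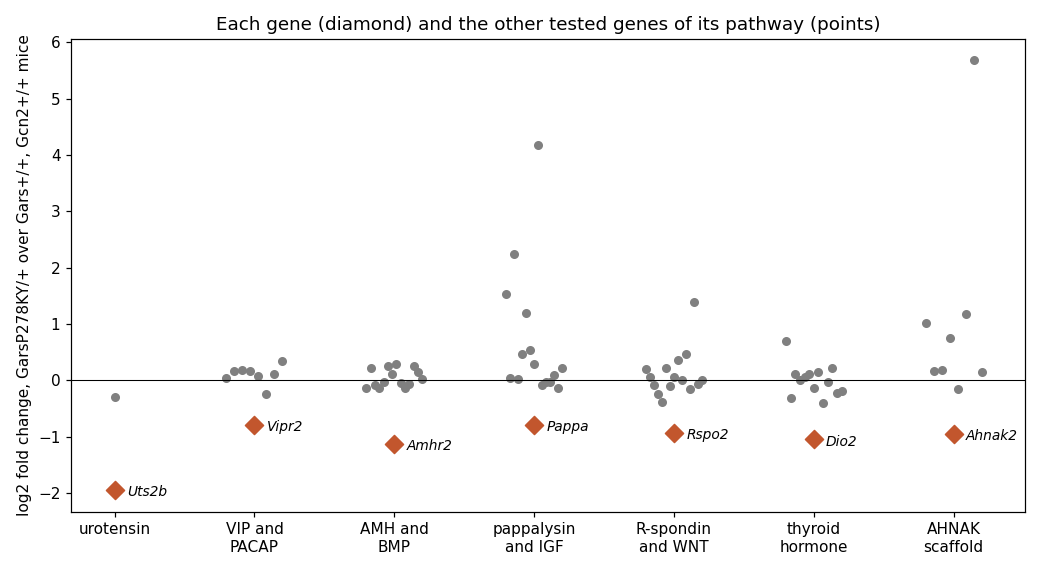
Log2 fold change between GarsP278KY/+ and Gars+/+ mice with intact Gcn2 (vertical axis) for each gene (diamond) and the other tested genes of its pathway list (points). The diamonds lie between -1.95 and -0.80, and the 74 points run from -0.41 to 5.68 with a median of 0.08.

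Over the 7 pathway lists together, 74 genes other than the 7 were tested. EdgeR called 0 of them in Gcn2+/+ mice, with 13 at an unadjusted p below 0.05 and 3 called by DESeq2. In Gcn2+/- mice 0 were called, with 20 at an unadjusted p below 0.05 and 5 called by DESeq2. In Gcn2-/- mice 0 were called, with 2 at that unadjusted level and 0 by DESeq2, and for the Gcn2-/- minus Gcn2+/+ difference these were 0, 3 and 0. Of all 17409 tested genes, 3005 were at that unadjusted level in Gcn2+/+ mice, 757 in Gcn2-/- mice and 858 for the difference. The shares among the 74 were close to these or below them. In Gcn2+/- mice the share among the 74 was above that of all tested genes, and this excess was not tested. The counts given above for single lists are to be read against the same shares. Ligands, receptors and targets thus did not move with the 7 genes at the level of single calls by edgeR. DESeq2 gave no adjusted p for 5 of the 74 in Gcn2+/+, 17 in Gcn2+/- and 1 in Gcn2-/- mice, and these stay out of its counts. A missed call does not show that they were the same.

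Genes whose levels ran most like those of the 7 across the 24 libraries were named by Pearson's r of log2(CPM + 1), among 13554 genes with a mean of at least 1 CPM. These correlations contain the group differences and are a description. Ahnak2 was most like Prph (r = 0.93), the peripherin gene, Chat (0.92), the acetylcholine-synthesising enzyme, and Slc10a4 (0.89), a vesicular transporter of cholinergic neurons. Pappa was most like Calcb (0.92) and Calca (0.89), which encode CGRP peptides, and Rspo2 (0.84). Uts2b had Calca (0.85), Shh (0.84) and Calcb (0.84), and Rspo2 had Rimkla (0.89), Vipr2 (0.88) and Calcb (0.87). Vipr2 had Rspo2 (0.88) and Ahnak2 (0.87). Dio2 was most like other genes, namely Slc20a1 (0.87), Gpc5 (0.84) and Clcn5 (0.84), and Amhr2 had Mest (0.78), Tfdp2 (0.76) and Trim16 (0.76). With group means and the sex difference removed, these values ran from 0.13 (Uts2b with Calcb) to 0.74 (Dio2 with Slc20a1 and with Gpc5). Pappa then had 0.29 with Calcb, 0.25 with Calca and 0.31 with Rspo2. Uts2b kept 0.65 with Calca, and Ahnak2 0.57 with Prph.

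Among the 7 genes themselves the 21 pairs had r from 0.58 to 0.88 with a median of 0.74. After the means of the groups and the sex difference were removed these ran from -0.17 to 0.63 with a median of 0.20. Most of the likeness among the 7 thus came with the group means, on which they were chosen. Vipr2 and Rspo2 kept the highest value of these, 0.63.

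Most motor neuron markers moved beside the 7 genes. The 11 markers in the files (Chat, Slc5a7, Isl1, Mnx1, Prph, Nefh, Nefm, Nefl, Slit3, Calca and Chodl) summed to 4970 to 5570 CPM in wild-type libraries and to 3100 to 3760 in Gcn2+/+ mutants, a mean of 66.1% of the wild-type level. The ranges were 4700 to 5480 and 3580 to 4320 in Gcn2+/- mice and 4840 to 5160 and 4390 to 4830 in Gcn2-/- mice, with mutant means of 76.2% and 87.9% of wild type. EdgeR called 8 of the 11 as lower in Gcn2+/+, 6 in Gcn2+/- and 1 in Gcn2-/- mice. Mutant means of the 7 genes (26.8% to 59.2% in Gcn2+/+) were all below that of the marker sum. Most of that sum is neurofilament, with wild-type means of 1050 CPM for Nefh, 2030 for Nefm and 1840 for Nefl. Some single markers were reduced as far as the 7 genes or further: Calca went from 23.2 ± 1.72 to 5.14 ± 1.39 CPM in Gcn2+/+ mice, a log2 fold change of -2.25 ± 0.19, and Chodl from 28.6 ± 5.87 to 6.45 ± 1.16, or -2.09 ± 0.21. Prph went from 41.5 ± 1.99 to 24.5 ± 4.87 CPM. Others were not: in Gcn2+/+ mice Mnx1 was at 0.04 ± 0.25 and Slit3 at 0.05 ± 0.10, and Isl1, at -0.48 ± 0.21, was not called. In Gcn2-/- mice Calca, the 1 marker called there, was at -1.96 ± 0.19, Chodl at -0.34 ± 0.20 and Prph at 0.00 ± 0.11. The share of the marker change in the 7 genes was not tested.

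**Figure D4:**
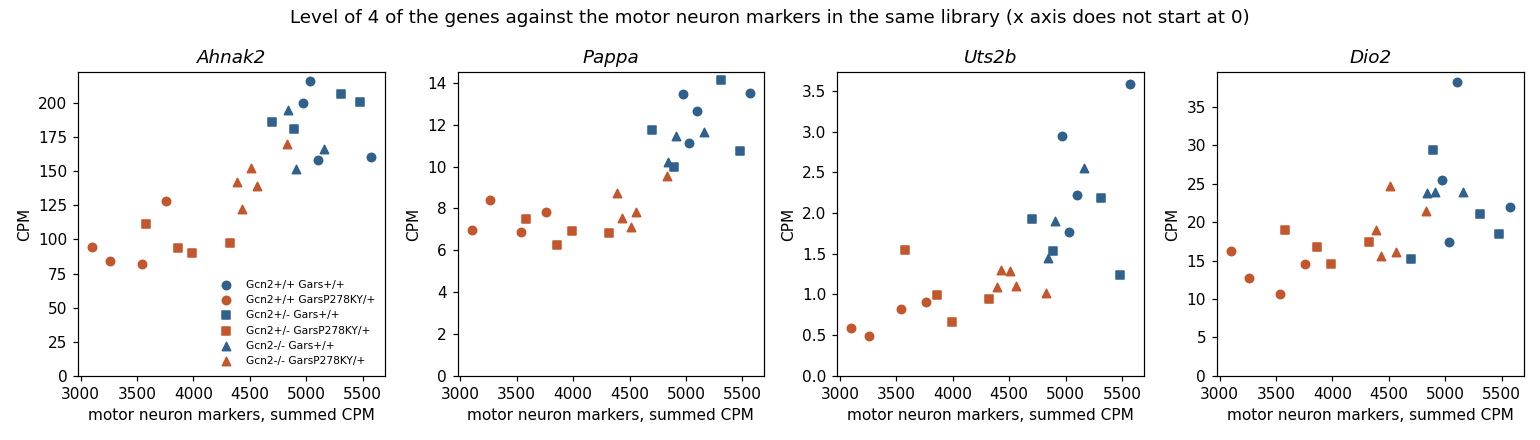
CPM of Ahnak2, Pappa, Uts2b and Dio2 (vertical axes, from 0) against the summed CPM of 11 motor neuron markers in the same library (horizontal axis, which does not start at 0); points are libraries, shape gives the Gcn2 genotype and colour the Gars genotype. The Gcn2+/+ mutants lie at 3100 to 3760 CPM of markers. The Gcn2-/- mutants lie at 4390 to 4830, below the Gcn2-/- controls at 4840 to 5160, and their Ahnak2 is at 122 to 170.3 CPM.

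The calls in Gcn2+/+ mice changed when the libraries of high Schwann and nerve root marker levels were left out, and all 7 values remained below 0. Without the 5 libraries of high Schwann score, 2 of the 7 genes were called, Uts2b and Pappa, where 36 genes were called in all against 110 with every library. Uts2b was then at -1.64, Pappa at -0.82, Vipr2 at -0.64, Rspo2 at -0.80, Ahnak2 at -0.84, Dio2 at -1.08 and Amhr2 at -1.13. In Gcn2+/- mice Pappa was at -0.61 and Ahnak2 at -1.01 without these libraries, and neither was called. Leaving them out also made the groups smaller. Gcn2+/+ mutants 1 and 3 remained against the 4 controls, and Gcn2+/- mutants 1, 2 and 3 against controls 2 and 4. How much of the lost calls came with fewer mice was not tested. With the Schwann score as a covariate 4 of the 7 were called in Gcn2+/+ mice, Amhr2 and Dio2 being lost. With only the 8 Gcn2+/+ libraries in the fit 0 of the 7 were called and 11 genes in all, with values from -1.89 to -0.83 for the 6 genes called otherwise. The number of calls thus depended on which groups shared the fit.

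The 7 genes lie on chromosomes 4, 12, 15 and 16 and none on chromosome 6 or 2, which carry Gars and Eif2ak4. On GRCm38, by GENCODE M21, Pappa (ENSMUSG00000028370) is at chr4:65124174-65357509 and Uts2b (ENSMUSG00000056423) at chr16:27353322-27370239. Chromosome 12 holds Dio2 (ENSMUSG00000007682, chr12:90724552-90738438), Ahnak2 (ENSMUSG00000072812, chr12:112772194-112802657) and Vipr2 (ENSMUSG00000011171, chr12:116077726-116146261), and 3.46% of tested genes with a position lie there. Chromosome 15 holds Rspo2 (ENSMUSG00000051920, chr15:43020794-43170826) and Amhr2 (ENSMUSG00000023047, chr15:102445367-102454633), with 3.83% of tested genes.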

How the data were processed

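Symbols and positions come from GENCODE M21 on GRCm38, which holds 37607 of the 38924 gene identifiers. The deposited files give expected counts per gene, which the authors made with RSEM (1.2.12) on Bowtie2 (2.2.0) alignments, the tools listed in the submitters' processing notes. A share of 72.0% of the values above 0 was within 0.005 of whole. The deposited TPM and effective lengths are the authors' other per-gene values. For the counting, genome build and annotation: not given in the sources used here. 2 library kits and 2 reagent versions are named per the labels, without saying which library had which.

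Expected counts were rounded, filtered by edgeR's filterByExpr, scaled by TMM and tested by edgeR (4.0.16, in R 4.3.3) with its quasi-likelihood F test, in 1 fit of 24 libraries, 6 groups and sex, with Benjamini-Hochberg adjustment over 17409 genes. The common biological coefficient of variation was 0.225. Log2 fold changes carry edgeR's prior count. Groups come from the labels. The labels do not say in words that each library is a separate animal, and p-values measure the spread between these samples. The method was tested on simulated data. DESeq2 1.42.0, other scalings, filters and fits and single left-out libraries were tried as alternatives.

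The members and lists were chosen with earlier results of these data known. Genes besides the members were named as the 2 of each pathway list with the smallest p, if none was called, and the 3 most like each member, of which 1 is not reported here. Those named for their role (Vip, Adcyap1, Amh, Pappa2, Igfbp4, Rspo3, Lgr4, Lgr5, Lgr6, Axin2, Klf9, Hr, Ahnak, Dio1, Dio3 and Uts2r) were chosen after their values were seen. Intervals are at 95%. Promoter sequences are from RefSeq (GRCm38.p6) and coding sequences from GENCODE M21. Pappa and Rspo2 had no promoter entry.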

Additional observations from a re-analysis of the deposited data

How the results depend on the processing

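With mutant Gars in Gcn2+/+ mice all 7 genes kept their direction in each of the 18 alternatives, with 6 called in the main analysis. DESeq2 also called Vipr2, where it called 648 genes in all. The number called was 0 with only the groups of the contrast, 3 when the title number was a block and 2 without the libraries of high Schwann score (an alternative chosen after seeing the data), and 4 to 7 when single libraries were left out. The fewest, 4, came without wild-type replicate 3, Gars mutant replicate 1 or Gars mutant replicate 4. Calls over all genes ran from 47 to 600 in these, the highest without wild-type replicate 1. In Gcn2+/- mice all 7 also kept their direction in 17 alternatives, with 2 called in the main analysis, 4 with DESeq2 (of 5, since it gave no adjusted p for Uts2b and Amhr2), 4 with title numbers in 2 sets, 1 with only the groups of the contrast, 0 when the title number was a block, 0 without the libraries of high Schwann score and 2 to 3 with single libraries left out. In Gcn2-/- mice, for the difference between Gcn2-/- and Gcn2+/+, for Gcn2 loss with wild-type Gars and for sex, 0 of the 7 were called in each alternative run, single libraries left out included. Amhr2 in Gcn2-/- mice, 0.01 in the main analysis, turned to -0.08 without the sex term, -0.02 with only the groups of the contrast and -0.01 with the 4 listed genotypes, and ran from -0.19 to 0.17 with single libraries left out. Vipr2's difference between Gcn2-/- and Gcn2+/+ turned to -0.02 without Gcn2+/+ Gars mutant replicate 1 and ran from -0.02 to 0.42 with single libraries left out and from -0.02 to 0.62 over all 25 alternatives. The cause was not tested. No paired analysis was possible because replicate numbers were given in accession order and pair no samples, and the title number, whose meaning is not stated, served as a block only as given above. Depth limits Amhr2 and Uts2b most, with 135 and 294 counts over 4 wild-type libraries.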
